A study of Mus musculus with 6 samples.

Results

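In all, 38 genes of the lysosome were followed in adult male C57BL/6 mice, in the subventricular zone (SVZ), where neural stem cells lie beneath the ventricle's ependyma. The tissue was taken 48 h after middle cerebral artery occlusion (MCAO, 3 arrays, lesioned side), a stroke model in which the artery supplying the striatum and lateral cortex is blocked, or 48 h after sham surgery (3 arrays). Both groups share strain, sex and time after surgery, and the labels name no transgene or drug; most label fields describe dissected SVZ, and one speaks of isolated cells. The genes encode proteases, glycosidases, lipid-handling proteins, membrane proteins, protease inhibitors, lysozymes and a transcription factor, and were picked by symbol: a probe set counted where the array annotation gave exactly 1 symbol, and the brightest probe set over the 6 arrays stood for each gene. All 38 of 38 were measured, among 18193 genes in all. Values are log2 expression, and a difference is MCAO minus sham. A gene passed the threshold at a Benjamini-Hochberg adjusted p under 0.05 in a limma fit over all 18193 genes.

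Lysosomes are acidic organelles that break down material taken up by endocytosis and phagocytosis or delivered by autophagy. Their enzymes reach them through sorting receptors, their membrane is lined by heavily glycosylated proteins, and a proton pump keeps the lumen acidic. In brain, microglia and macrophages are rich in lysosomal proteases, and neurons and astrocytes depend on the same hydrolases. The transcription factor TFEB binds the CLEAR element, whose core is CACGTG, in promoters of many lysosomal genes, while PU.1 binds purine-rich sites in genes of myeloid cells.

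Markers of the labelled region were present. Of 8 measured markers of SVZ progenitors and neuroblasts, 7 lay above the median of all genes in sham. So did 5 of 6 ependymal markers and 2 of 6 choroid plexus markers. The same held for 8 of 8 astrocyte, 7 of 8 neuronal and 5 of 5 oligodendrocyte markers. The counts thus do not tell the SVZ from neighbouring tissue. None of the 8 SVZ markers passed by limma (1 was higher at an unadjusted p under 0.05, 1 rose with the block). Their linear sums were 4305 to 5538 in MCAO and 3139 to 4008 in sham. Both arrays numbered 1 lay apart from the other 4 on the principal component with 40.8% of the variance, and the next component, with 33.8%, separated MCAO from sham. Sample titles carry a number from 1 to 3 in each group. Same-numbered arrays deviated from their groups together, so each result is also given with the sample number as a block where the block changes its call. Whether each array held a separate mouse is not stated, so the spread behind every p-value may be technical.

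Promoter sequences (RefSeq, GRCm38.p6) were read for 34 of the 38 genes; Asah1, Ctsb, Ctsh and Npc1 had no entry. Those of 4 genes are shown because these genes differ in motif and in response. Each line gives the 250 bases before a start site, 5′ to 3′ on the gene's strand, with the motif in capitals. Ctsc (chr7:88277835-88278084, plus strand), which encodes the dipeptidyl peptidase cathepsin C, holds the PU.1 motif GAGGAAGT as its reverse complement 151 bases before the start. Lgmn (chr12:102439093-102439342, minus strand), which encodes the asparaginyl protease legumain, holds the CLEAR core at 49 bases in 1 of its 2 listed promoters. Ctsd (chr7:142387828-142388077, minus strand), which encodes the aspartyl protease cathepsin D, holds it at 245 and 98 bases. Lamp1 (chr8:13158911-13159160, plus strand), which encodes a major membrane glycoprotein, holds 4 copies, the first at 61 bases. Lgmn met the rule for printing a promoter (past the threshold, with a CLEAR core), and the other 3 were picked after their values were seen.
Ctsc: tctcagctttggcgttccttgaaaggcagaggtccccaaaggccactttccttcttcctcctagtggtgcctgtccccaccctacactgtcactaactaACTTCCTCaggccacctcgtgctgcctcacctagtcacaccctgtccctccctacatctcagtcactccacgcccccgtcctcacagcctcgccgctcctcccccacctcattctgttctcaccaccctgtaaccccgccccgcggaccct
Lgmn: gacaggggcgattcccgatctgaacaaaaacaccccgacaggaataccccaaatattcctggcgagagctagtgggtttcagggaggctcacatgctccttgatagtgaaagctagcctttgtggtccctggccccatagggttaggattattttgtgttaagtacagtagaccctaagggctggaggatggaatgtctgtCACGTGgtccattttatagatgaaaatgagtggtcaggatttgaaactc
Ctsd: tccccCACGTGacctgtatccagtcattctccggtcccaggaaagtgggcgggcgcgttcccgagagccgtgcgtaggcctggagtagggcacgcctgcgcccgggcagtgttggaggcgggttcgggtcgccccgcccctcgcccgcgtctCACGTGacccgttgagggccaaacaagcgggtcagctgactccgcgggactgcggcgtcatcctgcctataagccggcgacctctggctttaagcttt
Lamp1: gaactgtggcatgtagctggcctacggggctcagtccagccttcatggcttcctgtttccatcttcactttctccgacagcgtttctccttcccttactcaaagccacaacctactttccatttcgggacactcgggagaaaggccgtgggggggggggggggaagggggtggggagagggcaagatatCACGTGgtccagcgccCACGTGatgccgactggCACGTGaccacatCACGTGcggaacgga

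In windows running from 250 bases before to 50 after each start, CACGTG, searched on both strands, stood in 11 of the 34 genes, or 32.4%, and in 8.09% of all 27025 genes of the promoter table. The 11 were Ctsa, Ctsd, Ctsf, Ctsl, Gaa, Gla, Glb1, Lamp1, Lgmn, Mcoln1 and Naglu. The longer form TCACGTGA, which contains the core, stood in 4 of the 34 (Ctsa, Ctsd, Gla and Mcoln1; 11.8%) and in 1.12% of all genes. GAGGAAGT, which overlaps neither, stood in 4 of the 34 (Ctsc, Ctss, Gla and Gusb; 11.8%) and in 3.69% of all genes. Against the calls described next, CACGTG stood in 1 of the 9 matched genes that passed the threshold, namely Lgmn, and in 10 of the 25 that did not. With the block described there it stood in 5 of 18 genes that passed and in 6 of 16 that did not. GAGGAAGT stood in 2 of the 9, Ctsc and Gusb, and in 2 of the 25, and with the block in 3 of the 18 and 1 of the 16. A match describes the letters of the window and shows no binding.

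After MCAO, 10 of the 38 lysosomal genes rose and 28 did not pass. Among the 10 were 4 protease genes (Ctsc, Ctsz, Lgmn and Ctsh), the glycosidase gene Gusb and the membrane protein genes Cd68 and Lamp2. The rest were the inhibitor gene Cst7 and the lysozyme genes Lyz1 and Lyz2, and the probe set that stood for Lyz1 may also bind Lyz2. Over all genes the share that rose was 1.12%, and 0.0165% fell. The 38 were chosen with earlier results of these data known, so comparisons with all genes are not independent of that choice. By limma 0 of the 38 fell, and 0 were lower at an unadjusted p under 0.05, against 2.46% of all genes, where 23 were higher, against 6.32%. The median difference of the 38 was 0.40 log2, against −0.0064 over all genes, and it ranged from −0.60 for Psap to 2.26 for Ctsc. At least 2-fold higher were 9 of the 38, against 0.495% of all genes, and 0 were at least 2-fold lower, against 0.011%. The arrays read RNA pooled over many cells, so more cells of a type and more RNA per cell cannot be told apart.

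With the sample number as a block 20 of the 38 rose, among them all 10 above, and 0 fell (0 lower at an unadjusted p under 0.05 without the block); 4.83% of all genes rose in that fit and 1.31% fell. Leaving out both arrays numbered 1, 13 rose, against 1.15% of all genes, and on the values as deposited 11 rose, against 1.03%. All 3 MCAO values lay above all 3 sham values for 24 of the 38 genes, against 8.4% of all genes, and the reverse held for 0 of the 38, against 5.36%. MCAO was the higher in all 3 same-numbered pairs for 27 of the 38, against 20% of all genes, and the lower in all 3 for 2, Ctsf and Mcoln1, against 19.8%. The count of 10 was smallest without sham 3, at 3 (Ctsc, Ctsz and Gusb), and without MCAO 3, at 4 (those 3 and Lgmn), fits that have 3 arrays against 2.

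**Figure D1:**
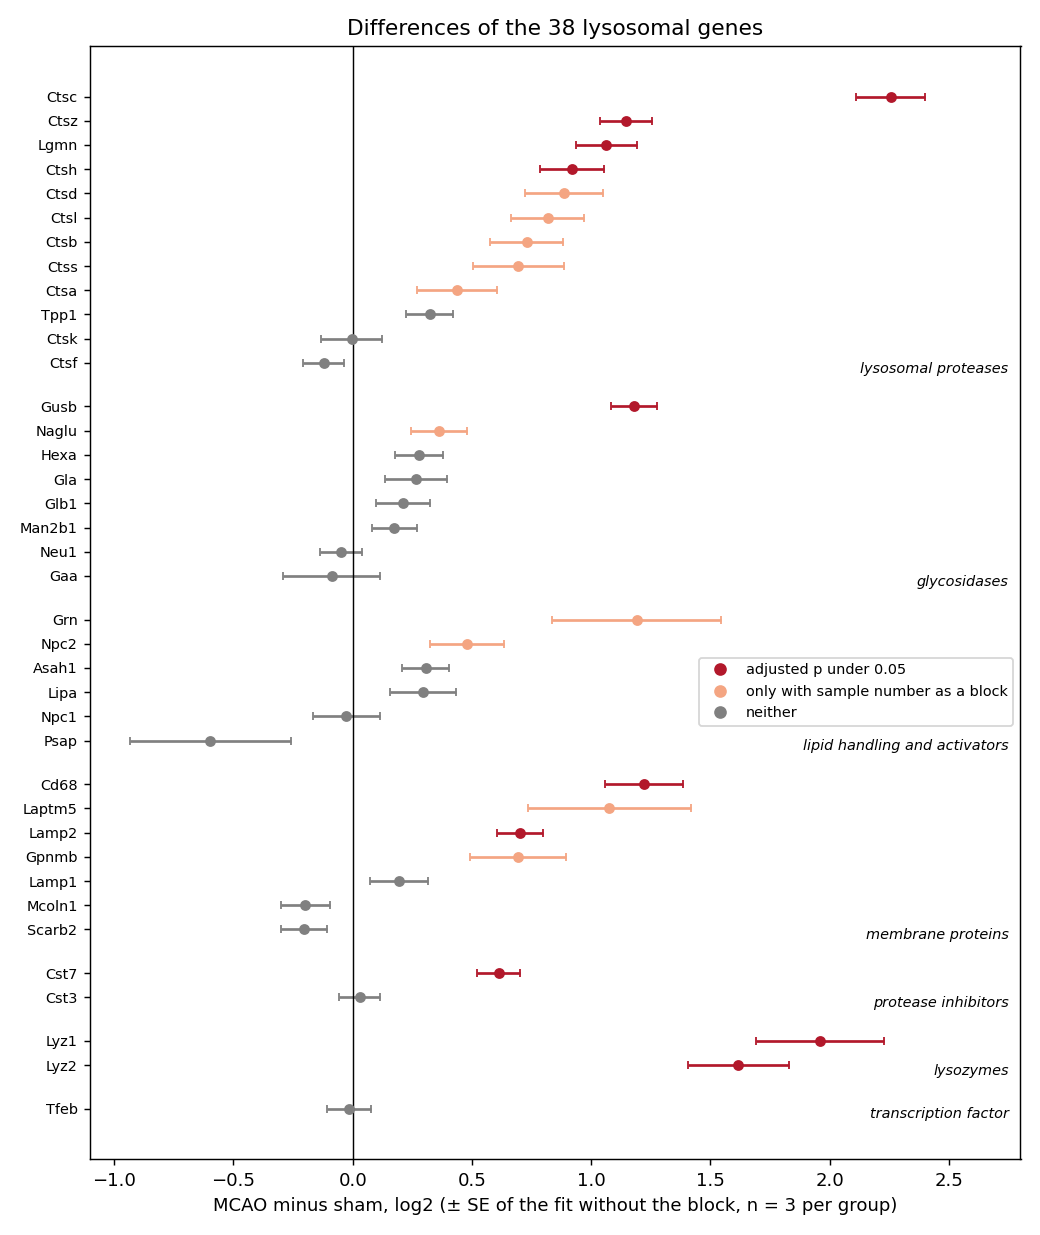
Differences of the 38 lysosomal genes (MCAO minus sham, log2, points with the standard error of the fit, 3 arrays per group), grouped by class. Red marks the 10 genes past the threshold, orange the 10 that passed only with the sample number as a block, and grey the others; the points run from −0.60 for Psap to 2.26 for Ctsc.

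All 10 measured microglia and macrophage markers read higher after MCAO, by 0.15 to 1.40 log2, and 6 of them did not overlap between groups. Whether they varied with the lysosomal genes from array to array was not tested. Of the 10 markers 5 rose (9 with the block), with C1qa, a complement subunit, 1.40 log2 higher and Tyrobp, a signalling adaptor, 1.22 higher. Summed on the linear scale, the 10 markers ranged from 6460 to 9320 in MCAO arrays and from 4219 to 4434 in sham arrays, with MCAO 1 the highest; Csf1r, the brightest of them, weighs most in that sum. In sham 7 of the 10 exceeded the median of all genes. Of 7 markers of infiltrating or border macrophages 2 rose, Mrc1 by 0.96 and Plac8 by 0.64, while 2 read lower, Cd163 at −0.13 with no overlap between groups and Lyve1 at −0.024, and Ccr2 read 0.039. The list had sums of 658.5 to 727.0 in MCAO and 546.4 to 575.3 in sham, and 0 of its 7 markers exceeded the median of all genes in sham. The part of these cells in the lysosomal differences was not tested.

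Among other cells, 2 of 8 astrocyte markers rose (4 with the block), Aldh1l1 by 0.89 and Aqp4 by 0.97, while 2 of the 8 read lower, Slc1a2 at −0.28 and Aldoc at −0.035. Gfap, the filament gene of reactive astrocytes, differed by 2.69 (adjusted p = 0.141) and rose with the block (5.17e-07). The astrocyte list had sums of 20570 to 23390 in MCAO and 17420 to 19910 in sham. Of 8 neutrophil markers none passed by limma and 2 were higher at an unadjusted p under 0.05, S100a8 reading 0.24 and Elane 0.20 higher. Their sums overlapped (613.8 to 661.4 in MCAO, 556.6 to 646.4 in sham). In sham 0 of these 8 exceeded the median of all genes, so such dim markers cannot show whether neutrophil content changed. All 8 neuronal markers read lower in MCAO without passing, 3 of them at an unadjusted p under 0.05. Drd1 read −0.34 (adjusted p = 0.104, and 0.0184 with the block) and Snap25 −0.24. Their sums were 17410 to 20960 in MCAO and 21450 to 24650 in sham. The part of these shifts in the lysosomal differences was also not tested.

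Proteases formed the largest class and the one with the most rises by count. Of 12 measured, 4 rose, 8 did not pass, and 9 rose with the block; their median difference was 0.77 log2. Ctsc read 9.73, 9.63 and 9.69 log2 in MCAO 1, 2 and 3, against 7.21, 7.78 and 7.29 in sham 1, 2 and 3. The 3 MCAO values had an SD of 0.047, and sham 2, the highest sham array, was still 1.85 below MCAO 2, the lowest MCAO array. Ctsc rose by 2.26 ± 0.15 on the log2 scale, or 4.77-fold (SE, 3 arrays a group), at an adjusted p of 0.00271 by limma, and kept its call without each array in turn. Cathepsin C removes dipeptides from protein ends and activates the serine proteases of immune cell granules.

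Ctsz, which encodes the carboxypeptidase cathepsin Z, read 10.74, 10.48 and 10.42 in MCAO 1, 2 and 3, against 9.25, 9.49 and 9.45 in sham 1, 2 and 3. The groups were apart by almost a full log2 unit, and MCAO 1 was the highest. Ctsz rose by 1.15 ± 0.11 (adjusted p = 0.00454) and passed without each array in turn. Lgmn, whose product also matures other cathepsins, read 9.501, 9.02 and 9.11 in MCAO 1, 2 and 3, against 8.12, 8.12 and 8.21 in sham 1, 2 and 3. Sham arrays were close together, and all MCAO arrays stood above them. Lgmn rose by 1.06 ± 0.13 (adjusted p = 0.0106) and lost its call only without sham 3 (0.0723).

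Ctsh, which encodes the aminopeptidase cathepsin H, read 8.86, 8.61 and 8.50 in MCAO 1, 2 and 3, against 7.63, 7.98 and 7.59 in sham 1, 2 and 3. The groups did not overlap, and sham 2 was the sham array nearest to MCAO. Ctsh rose by 0.92 ± 0.14 (adjusted p = 0.0229). It lost that call without MCAO 2 (0.0713), MCAO 3 (0.0620), sham 1 (0.0692) or sham 3 (0.134).

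Ctsd, the gene of the main aspartyl protease of lysosomes, read 10.90, 10.33 and 10.46 in MCAO 1, 2 and 3, against 9.45, 9.79 and 9.79 in sham 1, 2 and 3. The groups did not overlap, and the arrays numbered 1 were the extremes of both. Its difference of 0.89 ± 0.16 did not pass (adjusted p = 0.0567) and passed with the block (0.00440) and without both arrays numbered 1 (0.0273). Ctsl and Ctsb, genes of abundant cysteine endopeptidases, differed by 0.82 and 0.73 (adjusted p = 0.0623 and 0.0966). Ctss, whose product works at neutral pH and trims the invariant chain in antigen-presenting cells, differed by 0.69 (0.220), and Ctsa, whose product shields Glb1 and Neu1 enzymes from breakdown, by 0.44 (0.464). These 4 did not overlap between groups and rose with the block, at adjusted p of 0.00136, 0.00152, 0.0154 and 0.0150.

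The other 3 proteases did not pass with or without the block. Tpp1, which encodes the tripeptidyl peptidase missing in a childhood neuronal storage disease, differed by 0.32 (adjusted p = 0.302). Ctsk, whose product degrades collagen in osteoclasts, read −0.0043 with overlapping groups, and Ctsf, another cysteine protease gene, −0.12 (0.860). Within the 9 cysteine protease genes the differences thus ran from −0.12 for Ctsf to 2.26 for Ctsc.

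**Figure D2:**
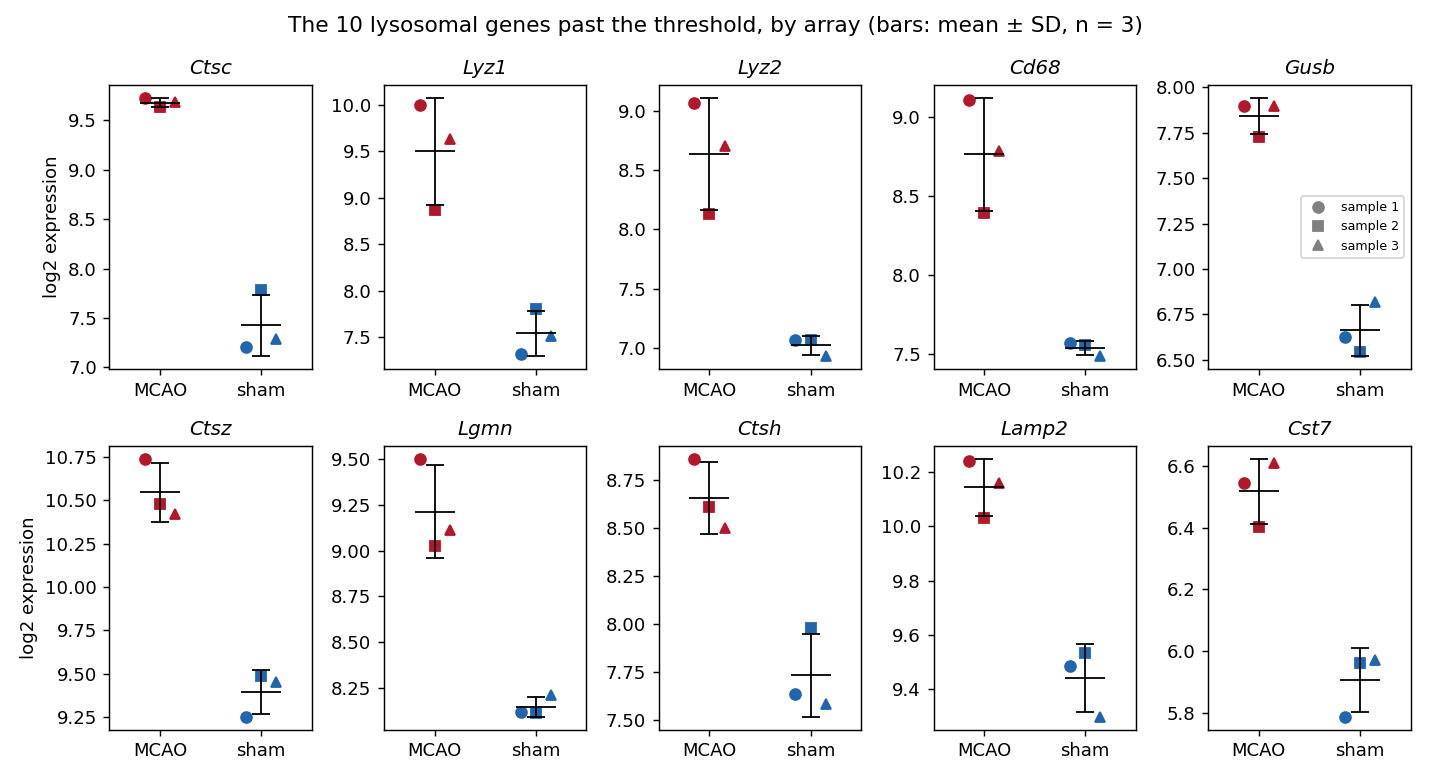
Log2 expression of the 10 lysosomal genes past the threshold on each array, with MCAO in red on the left and sham in blue on the right of each panel, symbols for samples 1 to 3, and bars for the mean and standard deviation of 3 arrays. The groups do not overlap in any panel. MCAO 1 is the highest MCAO array in 9 of the 10, all but Cst7, counting Gusb, where MCAO 3 is level with it. The y axes differ between panels and do not start at 0.

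One glycosidase gene rose. Gusb, which encodes the beta-glucuronidase that trims glycosaminoglycans, read 7.90, 7.73 and 7.90 in MCAO 1, 2 and 3, against 6.62, 6.55 and 6.82 in sham 1, 2 and 3. The spread within each group was small beside the gap between them. Gusb rose by 1.18 ± 0.097, which is 2.26-fold, with an adjusted p of 0.00306 by limma, and kept its call without each array in turn. Naglu, which acts on heparan sulfate, differed by 0.36 (adjusted p = 0.342) and rose with the block (0.0143).

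The other 6 glycosidases did not pass with or without the block. Hexa, a subunit of the enzyme that degrades GM2 ganglioside, differed by 0.28, Gla, which removes terminal alpha-galactose, by 0.27, Glb1, which removes beta-galactose, by 0.21, and Man2b1, an alpha-mannosidase, by 0.17. Neu1, a sialidase gene, and Gaa, whose product breaks down glycogen, read −0.049 and −0.088. The median of all 8 was 0.24, and 4 of them had all MCAO values above all sham values.

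Of 6 genes for lipid handling and enzyme activators none passed by limma (3 were higher at an unadjusted p under 0.05), and 2 rose with the block. Grn encodes progranulin, a secreted protein carried to lysosomes and cleaved there into granulins. It read 11.29, 9.71 and 10.25 in MCAO 1, 2 and 3, against 9.49, 9.10 and 9.09 in sham 1, 2 and 3. The groups did not overlap, but MCAO 1 stood more than a log2 unit above the other MCAO arrays. Grn differed by 1.19 ± 0.35 (adjusted p = 0.269), rose with the block (0.00179), and passed at 0.89 without both arrays numbered 1 (0.0384). Npc2, the lumenal cholesterol carrier, differed by 0.48 (0.337) and rose with the block (0.0357).

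Its membrane partner Npc1 read −0.027 (adjusted p = 0.991). Asah1, the acid ceramidase gene, differed by 0.31 and Lipa, which encodes the lipase for cholesteryl esters and triglycerides, by 0.29, neither passing with the block (0.0809 and 0.0967). Psap, the precursor of the saposins that help degrade sphingolipids, read 11.60, 10.05 and 10.97 in MCAO 1, 2 and 3, against 11.31, 11.61 and 11.50 in sham 1, 2 and 3. MCAO 1 lay within the sham range, MCAO 3 below it and MCAO 2 far below it. Its difference of −0.60 ± 0.34 did not pass (0.753, and 0.218 with the block), and read −0.18 without MCAO 2, −0.96 without MCAO 1 and −1.04 when sham 1 was left out as well. The other Psap probe set showed the same order, at 10.93, 9.53 and 10.18 in MCAO 1, 2 and 3, against 10.88, 11.21 and 10.95 in sham 1, 2 and 3, a difference of −0.79 (unadjusted p = 0.0345, adjusted 0.581 over probe sets).

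Among 7 membrane protein genes 2 rose and 5 did not pass, while 4 rose with the block. Cd68, a heavily glycosylated protein of phagocyte endosomes and lysosomes, read 9.11, 8.39 and 8.79 in MCAO 1, 2 and 3, against 7.57, 7.56 and 7.49 in sham 1, 2 and 3. The MCAO arrays spread 0.36 (SD) and the sham arrays 0.043, without overlap. Cd68 rose by 1.22 ± 0.16 (adjusted p = 0.0150) and lost its call without MCAO 3 (0.0866), sham 2 (0.0634) or sham 3 (0.0993). Lamp2, one of the 2 main membrane glycoproteins and the receptor of chaperone-mediated autophagy in one of its isoforms, read 10.24, 10.03 and 10.16 in MCAO 1, 2 and 3, against 9.49, 9.54 and 9.30 in sham 1, 2 and 3. It rose by 0.70 ± 0.095 (0.0158) and lost its call without MCAO 3 (0.0837) or sham 3 (0.0894).

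Lamp1, the other main glycoprotein, read 10.83, 10.72 and 10.98 in MCAO 1, 2 and 3, against 10.41, 10.70 and 10.83 in sham 1, 2 and 3. The groups overlapped, and the difference of 0.19 ± 0.12 did not pass (adjusted p = 0.808, and 0.238 with the block). Gpnmb, a glycoprotein of phagocytes under lysosomal load, read 7.60, 6.71 and 6.95 in MCAO 1, 2 and 3, against 6.37, 6.39 and 6.41 in sham 1, 2 and 3. MCAO 1 was again the highest. The difference of 0.69 ± 0.20 did not pass (0.261) and did with the block (0.0159).

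Laptm5, a lysosomal protein of blood-lineage cells, differed by 1.08 ± 0.34 (adjusted p = 0.322) and rose with the block (4.49e-04); the MCAO arrays read 10.10, 8.74 and 9.11 and the sham arrays 8.58, 7.81 and 8.33, so MCAO 1 stood well above the rest. Mcoln1, the lysosomal calcium channel, read 7.67, 7.73 and 7.86 in MCAO 1, 2 and 3, against 7.76, 8.01 and 8.09 in sham 1, 2 and 3. MCAO was the lower in every same-numbered pair, but the groups overlapped and −0.20 ± 0.10 did not pass (0.713, and 0.151 with the block). Scarb2, the receptor that carries glucocerebrosidase to lysosomes, read −0.21 (0.637, and 0.235 with the block).

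The 2 cystatin genes, which encode inhibitors of cysteine cathepsins, differed in their values. Cst7, the leukocyte cystatin F whose targets include cathepsin C, read 6.54, 6.40 and 6.61 in MCAO 1, 2 and 3, against 5.79, 5.96 and 5.97 in sham 1, 2 and 3. All MCAO arrays lay above all sham arrays, at the dim end of the scale. Cst7 rose by 0.61 ± 0.090 (adjusted p = 0.0229), and passed in only 1 of the 6 fits that left out an array (up to 0.102, without MCAO 3; 0.0597 without both arrays numbered 1). Cst3, the secreted cystatin C abundant in brain, read 12.87, 12.98 and 12.79 in MCAO 1, 2 and 3, against 12.75, 12.86 and 12.94 in sham 1, 2 and 3. Its groups overlapped, with a difference of 0.029 ± 0.087 (0.988).

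The brightest probe sets of both lysozyme genes, whose products cut bacterial cell walls, rose, but a rise of Lyz1 apart from Lyz2 was not shown. Lyz2, the lysozyme of macrophages, read 9.07, 8.13 and 8.71 in MCAO 1, 2 and 3, against 7.07, 7.06 and 6.93 in sham 1, 2 and 3. MCAO 2 was the lowest MCAO array and still more than a log2 unit above sham. Lyz2 rose by 1.62 ± 0.21, or 3.07-fold (adjusted p = 0.0132), and lost its call without MCAO 3 (0.0837), sham 2 (0.0588) or sham 3 (0.0928). Lyz1, in mouse best known from Paneth cells of the gut, read 10, 8.87 and 9.63 in MCAO 1, 2 and 3, against 7.32, 7.80 and 7.51 in sham 1, 2 and 3. It rose by 1.96 ± 0.27 (0.0168), losing the call without MCAO 3 (0.1) or sham 3 (0.107). That probe set, and a second Lyz1 set 1.58 higher (0.0726 over probe sets), have names ending in _x_at, so they may also bind Lyz2. The third Lyz1 set, without that ending, read 5.85, 5.92 and 5.87 in MCAO 1, 2 and 3, against 5.94, 5.91 and 5.93 in sham 1, 2 and 3, a difference of −0.047. Lyz1 and Lyz2 thus cannot be told apart in the Lyz1 value.

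Tfeb, the transcription factor gene, read 6.94, 7.03 and 7.11 in MCAO 1, 2 and 3, against 6.89, 7.13 and 7.10 in sham 1, 2 and 3. The groups overlapped fully, and the difference was −0.017 ± 0.092 (adjusted p = 0.991, and 0.938 with the block). TFEB is known to be controlled through its phosphorylation and movement to the nucleus, which RNA arrays do not read.

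**Figure D3:**
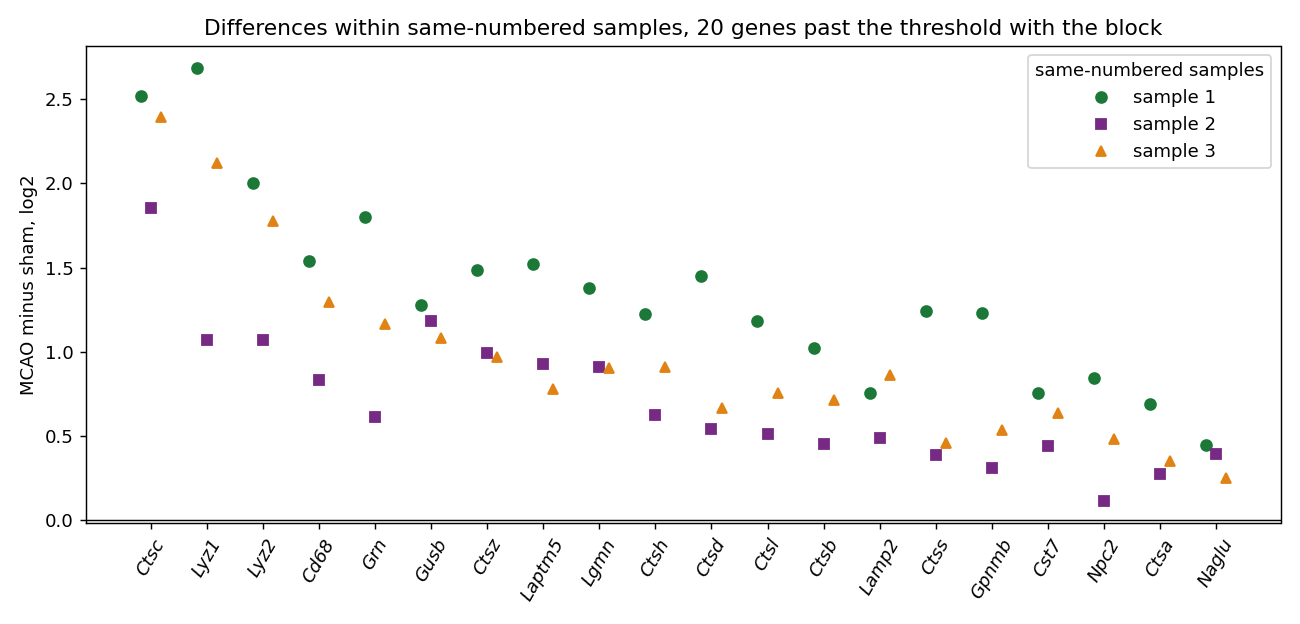
Differences within same-numbered samples (MCAO minus sham, log2) for the 20 lysosomal genes past the threshold with the block, ordered by their mean difference. All 20 are above 0 in all 3 pairs, which the fit that picked them favours, since it rests on these same differences. The pair numbered 1 has the largest difference for 19 of them, all but Lamp2, and the pair numbered 2 the smallest for 15. The share of all genes with these orders was not counted.

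The size of the difference varied with the sample number. Over all genes, both arrays numbered 1 also lay apart, on the component with 40.8% of the variance. The share of all genes with the orders given here was not counted. Of the 20 genes past the threshold with the block, 19 differed most between the samples numbered 1. For Grn the within-pair differences were 1.80, 0.61 and 1.16 log2 in the order of the numbers, for Ctsd 1.45, 0.54 and 0.67, and for Ctss 1.24, 0.38 and 0.46. Gusb gave 1.28, 1.18 and 1.08. MCAO 1 was the highest MCAO array for 25 of the 38 genes, counting Gusb, where MCAO 3 was level with it at 7.90. Sham 1 was the lowest sham array for 22. Of the 10 microglia and macrophage markers 7 were highest in MCAO 1 among the MCAO arrays, and 2, C1qa and Tmem119, were lowest there.

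Different probe sets of a gene did not always read alike. Of the 38 genes 23 had several, and in 14 of these all had differences of one sign. In a limma fit over all 34945 probe sets with 1 symbol, added after the data were seen, 16 of the 79 probe sets of these genes rose, in 12 genes, against 0.644% of all probe sets. The 2 genes this added were Ctsb and Grn. One Ctsb set that is not the brightest differed by 0.83 ± 0.12 (adjusted p = 0.0320), while 3 dimmer ones differed by 0.15 to 0.36. The Grn set without a cross-binding name differed by 1.01 ± 0.15 (0.0394), at 9.23, 8.76 and 9.22 in MCAO 1, 2 and 3, against 7.85, 8.09 and 8.23 in sham 1, 2 and 3.

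All 3 Ctsz sets rose, by 1.07 to 1.18. For Ctsc, the brightest set differed by 2.26 and the other 2, near the dim end of the scale, by 0.47 and 0.19. The 5 Laptm5 sets ran from −0.069 to 1.08, and the brightest has a name ending in _x_at. The second Ctsl set read −0.026, and the second Scarb2 set read 0.31 where the brightest read −0.21. The second Gpnmb set, dimmer than the first, read −0.0035 where the brightest read 0.69, and the mean of its sets differed by 0.345. The other Gla sets read −0.090 and −0.060 where the brightest read 0.27.

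**Figure D4:**
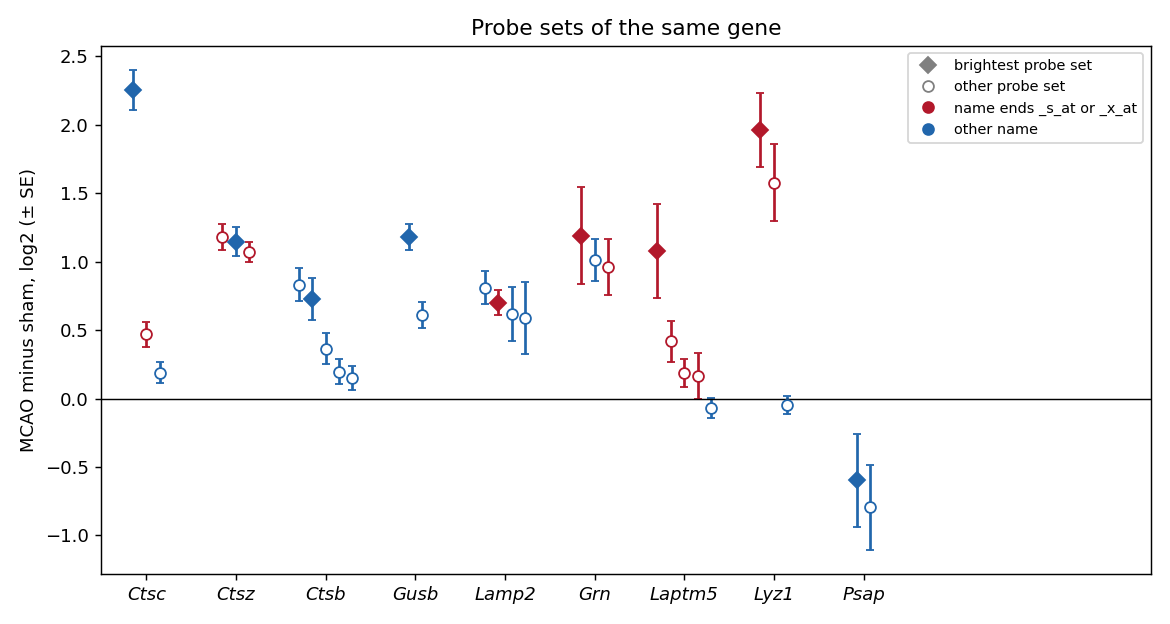
Differences (MCAO minus sham, log2, with standard error) of every 1-symbol probe set of 9 of the genes, from the fit over all such probe sets. Filled diamonds are the brightest set of each gene and open circles the others; red marks names ending in _s_at or _x_at, and the third Lyz1 set, in blue, sits at −0.047 beside 2 red ones at 1.58 and 1.96.

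Other genes of the organelle were read from 7 lists holding none of the 38. Both the 38 and these lists were chosen with earlier results of these data known, so a contrast between them is not an independent test. Of their 109 measured genes 2 rose and 107 did not pass, where 1.12% of all genes rose. With the block 9 of the 109 rose and 1 fell, against 4.83% and 1.31% of all genes. Their median difference was 0.0072 log2. Both rises were among the 26 measured genes of the list named other hydrolases (5 with the block), though Ifi30 encodes a reductase and not a hydrolase. Ifi30, the interferon-induced thiol reductase of antigen processing, rose by 1.71 ± 0.13 (adjusted p = 0.00306), and Aga, which cleaves sugars from asparagine, by 0.41 ± 0.072 (0.0449). Aga lost its call without each of the 6 arrays, at 0.112 to 0.202. Fuca1, a fucosidase gene, differed by 0.27 (0.233) and rose with the block (0.0420).

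None of the 17 proton pump genes passed by limma, and 1 was higher at an unadjusted p under 0.05, Atp6v0e at 0.38 (adjusted p = 0.518, and 0.0208 with the block). Atp6v1b2 and Atp6v0a2, other pump subunits, read −0.15 and 0.087. Of 19 other membrane proteins and channels none passed (3 higher at an unadjusted p under 0.05, 2 rising with the block). The metal transporter gene Slc11a1, active in phagocytes, differed by 0.54 (0.212, and 0.0264 with the block), the nucleoside transporter gene Slc29a3 by 0.36 (0.555, and 0.0120 with the block), and the sialomucin gene Cd164 by 0.22.

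None of 14 enzyme sorting genes passed, and 0 had an unadjusted p under 0.05. Sort1, the sortilin gene, read −0.18, the mannose 6-phosphate receptor gene M6pr 0.14 and the retromer gene Vps26a 0.13. Among 3 measured further inhibitors of cysteine proteases Cstb, which encodes a cytosolic inhibitor, differed by 0.48 (adjusted p = 0.0774) and rose with the block (0.00846), while Cst6 and Stfa3 read −0.17 and −0.14.

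For the 15 relatives of Tfeb and parts of the mTORC1 scaffold that holds TFEB in the cytoplasm none passed by limma and 1 was higher at an unadjusted p under 0.05, Tfec at 0.22 (adjusted p = 0.362). Mitf read −0.14 and the scaffold gene Lamtor1 0.16. Of 15 autophagy genes none passed and 0 had an unadjusted p under 0.05, with Gabarapl1, Becn1 and Map1lc3b reading −0.15, −0.17 and −0.15.

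**Figure D5:**
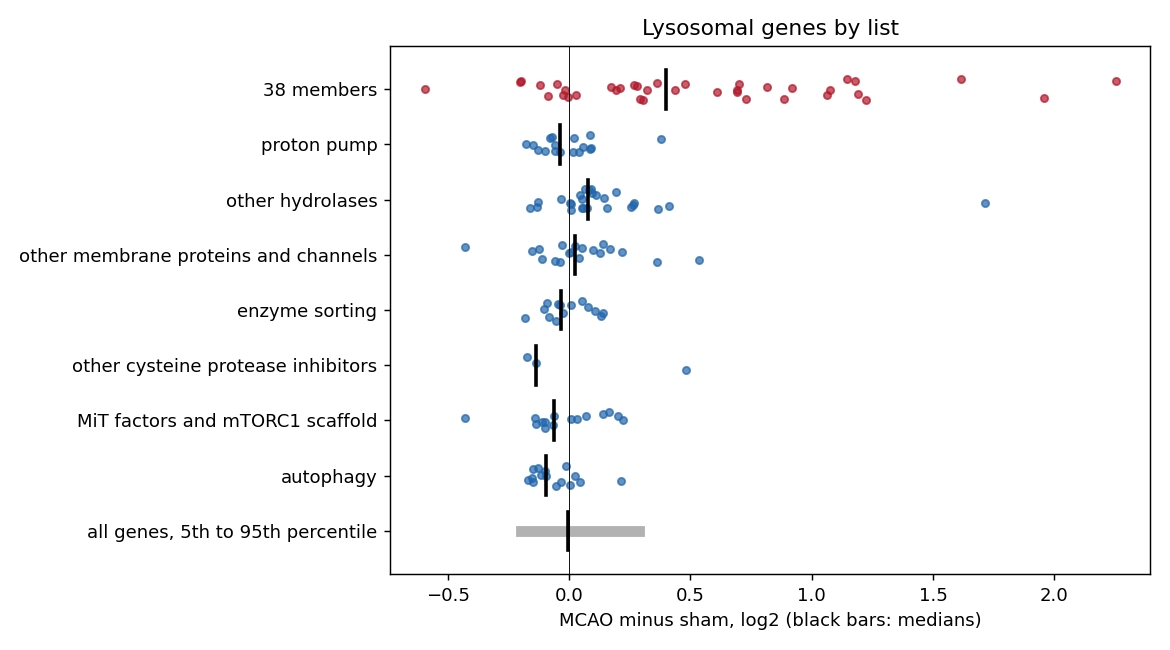
Differences (MCAO minus sham, log2) of the 38 lysosomal genes in red and of 7 further lists in blue, 1 point per gene, with black bars for medians and a grey bar for the 5th to 95th percentile of all genes. The 38 have a median of 0.40, and the further lists have medians from −0.14 for cysteine protease inhibitors to 0.077 for other hydrolases. The 38 and the lists were chosen with earlier results of these data known.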

How the data were processed

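RNA from the SVZ was read on 6 one-colour arrays of biotin-labelled RNA, 3 MCAO and 3 sham. The authors deposited log2 expression values for 45101 probe sets; how they corrected background, summarised probes and normalised is not given in the sources used here. Medians of the deposited log2 values were 6.57 to 6.59 and 90th percentiles 8.84 to 9.05, so quantile normalization was added after 64 control probe sets were set aside. Of the rest, 34945 had 1 symbol, 932 several and 9160 none; 34741 of the 34945 were found in RefSeq by gene number, and 0 symbols changed. The contrast MCAO minus sham was fitted with lmFit and eBayes (limma 3.58.1, R 4.3.3), without a block; p-values are 2-sided. The fit was also run on simulated data. No outcome is given here, so that run does not vouch for the calls.

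The sample number served as a block in an alternative because deviations of same-numbered arrays correlated at 0.77, 0.44 and 0.48; the labels do not say what the number marks. A permutation test of 3 arrays against 3 cannot go below 0.1, 2-sided. The number of arrays limits the precision. Genes were named by rule: all 38 members with differences, array values for those past the threshold and for Tfeb, Mcoln1, Grn, Lamp1, Lamp2, Cst3, Gpnmb and Ctsd, the 3 smallest p of each of 7 further lists, and 2 of a marker list; array values of Psap and Laptm5, and Gfap, Slc1a2, Aldoc, Cd163, Lyve1, Ccr2, Csf1r and Tmem119 among the markers, were added after their values were seen. The members and lists were chosen with earlier results of these data known. Oligodendrocyte and endothelial markers had none past the threshold (0 and 1 of 5 and 6 at an unadjusted p under 0.05). No protein sequences were used here. Alternatives were other scaling, variance models, probe set choices, a filter on dim genes and arrays left out.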

Additional observations from a re-analysis of the deposited data

How the results depend on the processing

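Of the 38 genes, those that rose numbered 10, and 11 on the values as deposited or after aligning array medians, 12 with an intensity trend, 10 with robust variance or a fit over all probe sets, 10 of 32 tested with dim genes left out (Ctsd in, Cst7 not tested), 9 with the mean of probe sets, 9 of 31 tested with probe sets ending _s_at, _x_at or _a_at left out, and 13 without both arrays numbered 1. With the replicate block 20 rose, on quantile-normalised values and on those deposited. Leaving out 1 array gave 3 to 11, the lowest without sham 3; these fits have fewer arrays. By limma 0 fell under any of these settings (0 lower at an unadjusted p under 0.05 with all arrays). The median difference of 0.40 log2 ran from 0.29 to 0.46, and 26 or 27 genes were higher in all 3 pairs.

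The count of 2 among the other lysosomal genes became 9 with the replicate block (7 on deposited values), and 1 on deposited values, with a common median, with a trend, with dim genes left out, without both arrays numbered 1 and without each single array, a range of 1 to 1; the cause was not tested.

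Leaving out _s_at, _x_at and _a_at sets also dropped sets that read several transcripts of one gene (_a_at, as for Ctsl and Man2b1); another probe set then stood for the gene and the sign turned for Ctsl (−0.026), Man2b1 (−0.044), Laptm5 (−0.069) and Lyz1 (−0.047, its call lost), and Scarb2 turned with the mean of probe sets (0.051). Differences near 0 that passed in no setting also changed sign: Npc1 on deposited values (0.0039, with or without the block), Tfeb there (0.012, with or without the block) and with a common median (0.0015), and Cst3 without both arrays numbered 1 (−0.016). Leaving out single arrays turned the sign of 6 genes, whose values then ran from −0.10 to 0.10 for Ctsk, −0.27 to 0.080 for Gaa, −0.090 to 0.016 for Neu1, −0.14 to 0.089 for Npc1, −0.022 to 0.076 for Cst3 and −0.092 to 0.028 for Tfeb. Over the 38 genes and all planned settings, 25 values turned sign, 22 lost a call, 32 gained one and 516 did neither. Calls that changed without the block or a single array left out were gains of Ctsb, Ctsd, Ctsl and Grn and losses of Lyz1 (above), Lamp2 (mean of probe sets, adjusted p = 0.107) and Cst7 (without both arrays numbered 1, 0.0597).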

Other observations

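The membrane protein gene Laptm4a and the scaffold gene Rraga were picked after their values were seen. Like Psap, both read lower in MCAO 2 than on any other array. This order was not particular to them, since Ctsk, Npc1 and Scarb2 also read lowest there. Among the MCAO arrays alone, MCAO 2 was also the lowest for genes that rose, such as Cd68, Lgmn and Lyz2. The share of all genes with either order was not counted. Laptm4a read 11.11, 9.71 and 9.93 log2 in MCAO 1, 2 and 3, against 10.89, 10.71 and 10.45 in sham 1, 2 and 3. Rraga read 9.19, 7.88 and 8.39 in MCAO 1, 2 and 3, against 9.37, 8.62 and 8.75 in sham 1, 2 and 3. Laptm4a did not pass (−0.43, 0.878 adjusted by limma) and read −0.76 without both arrays numbered 1 (0.0264). By limma Rraga read −0.43 (adjusted p = 0.875) and fell with the sample number as a block (0.0296).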
